A study of Mus musculus with 8 samples.

Results

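Granule-mediated killing is described here through 9 mouse genes, which were picked by gene symbol from the table of 55665 annotated genes. They are the granzyme genes Gzma, Gzmb and Gzmc, the pore-forming protein gene Prf1 (perforin), the granule genes Nkg7, Srgn (serglycin) and Ctsw (cathepsin W), and the serine protease inhibitor genes Serpinb6b and Serpinb9. All 9 were found in the table, and all 9 had enough reads to be tested along with 16642 genes in all.

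RNA was sequenced from nTreg cells, the CD4+ T cells that express Foxp3 and restrain immune responses. The cells were sorted by CD4 and GFP from spleen and lymph nodes and were cultured ex vivo. Every group had the genotype RosaCas9/+ Foxp3gfp, so Cas9 and a Foxp3 reporter were present in the controls too. The 8 libraries formed 4 groups of 2. They are sgFoxp3 (a guide against Foxp3) after 3 h of restimulation of the T cell receptor (TCR) by antibodies to CD3 and CD28, sgNC (the control guide) after the same 3 h, sgFoxp3 with Mock (DPBS) treatment, called 0 h, and sgNC with Mock (DPBS) treatment. The labels do not say whether the 2 libraries of a group came from separate cultures or animals, so the p-values reflect how far these particular libraries differ, and that spread may be only technical.

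Library totals ran from 38729009 to 94807362 expected counts. Foxp3, the gene the guide targets, averaged 73.9 ± 3.05 CPM (counts scaled to library size) with the Foxp3 guide, against 676 ± 3.82 with the control guide at 3 h, and 88.0 ± 0.621 and 769.9 ± 8.51 CPM at 0 h (SD, n = 2 each). All 6 markers of Treg and CD4 T cells were detected in every library. Their summed level, which includes Foxp3, was lower with the Foxp3 guide at both times, and at 3 h most of it was Il2ra. The list did not move as a whole. Foxp3, Il2ra and Ctla4 were lower with the Foxp3 guide at both times. Cd4 was higher, by log2 changes of 0.35 at 3 h and 0.25 at 0 h. Cd3e was higher by 0.24 at 3 h and was not called at 0 h. Ikzf2 was lower at 0 h and was not called at 3 h. In bulk RNA, fewer cells of a type and less RNA per cell cannot be told apart.

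Cytotoxic lymphocytes keep granzymes, which are serine proteases, in secretory granules bound to the proteoglycan serglycin. After contact with a target cell, perforin opens a way for granzymes into that cell, where granzyme B cleaves caspases and other substrates. Serpinb9 is an intracellular inhibitor of granzyme B and is known to shield cells from their own granzyme. In Treg cells granzyme B and perforin are known as one route of suppression.

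The 250 bases upstream of the RefSeq start (GRCm38.p6) are shown for 6 of these genes, as examples of different directions of guide effect. Gzma, Gzmb and Nkg7 were higher with the Foxp3 guide at both times, Prf1 was lower at both times, and Serpinb6b and Serpinb9 were lower at 0 h and higher at 3 h. Gzmc and Srgn were also higher at both times and Ctsw also lower, but their windows are not printed. Ctsw had no entry among the promoter sequences. Capitals mark matches on either strand to 6 motifs, and positions count back from the start. The motifs were RUNX (TGTGGT), AP-1 (TGANTCA), STAT (TTCNNNGAA), T-box (AGGTGT), forkhead (TGTTTAC) and the cyclic AMP response element (TGACGTCA).
Gzma, chr13:113100982-113101231, minus strand: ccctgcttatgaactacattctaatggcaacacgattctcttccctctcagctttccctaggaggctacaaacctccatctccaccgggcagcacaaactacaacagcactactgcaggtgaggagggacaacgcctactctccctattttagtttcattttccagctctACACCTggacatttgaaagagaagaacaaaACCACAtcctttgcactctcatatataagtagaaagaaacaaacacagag
Gzmb, chr14:56262335-56262584, minus strand: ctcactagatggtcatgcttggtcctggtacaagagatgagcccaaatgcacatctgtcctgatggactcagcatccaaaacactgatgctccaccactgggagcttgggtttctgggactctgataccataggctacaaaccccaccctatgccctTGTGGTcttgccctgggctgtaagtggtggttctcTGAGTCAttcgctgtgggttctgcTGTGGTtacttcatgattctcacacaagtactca
Nkg7, chr7:43436888-43437137, plus strand: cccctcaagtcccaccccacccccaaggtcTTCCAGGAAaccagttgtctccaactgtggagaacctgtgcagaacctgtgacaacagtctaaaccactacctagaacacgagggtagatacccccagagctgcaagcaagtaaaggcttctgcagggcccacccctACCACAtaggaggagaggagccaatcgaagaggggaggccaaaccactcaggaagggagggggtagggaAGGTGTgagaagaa
Prf1, chr10:61297586-61297835, plus strand: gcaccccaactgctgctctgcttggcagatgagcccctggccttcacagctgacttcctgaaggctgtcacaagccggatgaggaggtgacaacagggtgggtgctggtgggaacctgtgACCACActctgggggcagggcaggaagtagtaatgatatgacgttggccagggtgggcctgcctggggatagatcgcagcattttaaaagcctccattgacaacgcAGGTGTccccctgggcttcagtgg
Serpinb6b, chr13:32965011-32965260, plus strand: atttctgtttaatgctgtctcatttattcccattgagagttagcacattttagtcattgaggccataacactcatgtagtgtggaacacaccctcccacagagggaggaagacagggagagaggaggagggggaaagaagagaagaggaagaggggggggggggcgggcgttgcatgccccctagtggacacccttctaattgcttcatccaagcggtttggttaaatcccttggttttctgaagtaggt
Serpinb9, chr13:33004291-33004540, plus strand: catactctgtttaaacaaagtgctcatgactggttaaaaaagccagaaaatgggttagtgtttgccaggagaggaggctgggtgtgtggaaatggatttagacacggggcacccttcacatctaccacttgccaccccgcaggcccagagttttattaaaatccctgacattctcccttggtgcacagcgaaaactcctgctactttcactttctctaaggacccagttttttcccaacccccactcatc

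RUNX letters stood in 6 of the 9 windows listed for 8 members, against 14% of 32851 promoter windows of that length. Srgn has a pair of windows, of which only the second held a match, at -202. In Gzmb they stood at -93 and -34, in Gzmc at -174 and -108, in Gzma at -50, in Nkg7 at -83 and in Prf1 at -130. T-box letters were found in 3 members, at -80 in Gzma, -24 in Prf1 and -14 in Nkg7, and in 11.8% of windows. The AP-1 letters occurred once among the members, in Gzmb at -58 between the RUNX matches (6.7% of windows). The STAT letters occurred in Nkg7 at -220 (7.0% of windows) and the cyclic AMP response element in Gzmc at -57 (1.5%). Forkhead letters, present in 3.2% of windows, were in no member. The Serpinb6b and Serpinb9 windows held none of the 6 motifs. Windows follow RefSeq starts, which can differ from the GENCODE gene positions given below. The Serpinb9 window lies wholly inside its GENCODE gene (start 33003250), so the bases upstream of that start were not searched. The Serpinb6b and Nkg7 windows run past their GENCODE starts (32965209 and 43437073), and the T-box match of Nkg7 lies inside the gene. The second Srgn window also lies inside its gene. These are matches of letters, and no binding was measured. Genes with RUNX matches are among those higher with the Foxp3 guide and among those lower.

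With the Foxp3 guide at 3 h, 7 of the 9 genes were higher than with the control guide and 2, Prf1 and Ctsw, were lower. Among all genes tested, 61.5% changed, 30.7% upward and 30.8% downward. At 0 h, 5 were higher and 4 lower, and 63.3% of all genes changed (34.2% upward and 29.1% downward). The median log2 change of the 9 was 0.94 at 3 h and 0.26 at 0 h, beside -0.01 and 0.02 over all genes tested. Calls here and below need an adjusted p under 0.05 in the quasi-likelihood test of edgeR, adjusted by Benjamini-Hochberg over all genes tested. In both guide comparisons, the libraries of the 2 groups did not overlap for any of the 9. How often this holds over all genes was not counted, so it sets none of the 9 apart. Such a large share of changed genes means that a call by itself sets none of the 9 apart, and the direction and size are given for each below.

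**Figure D1:**
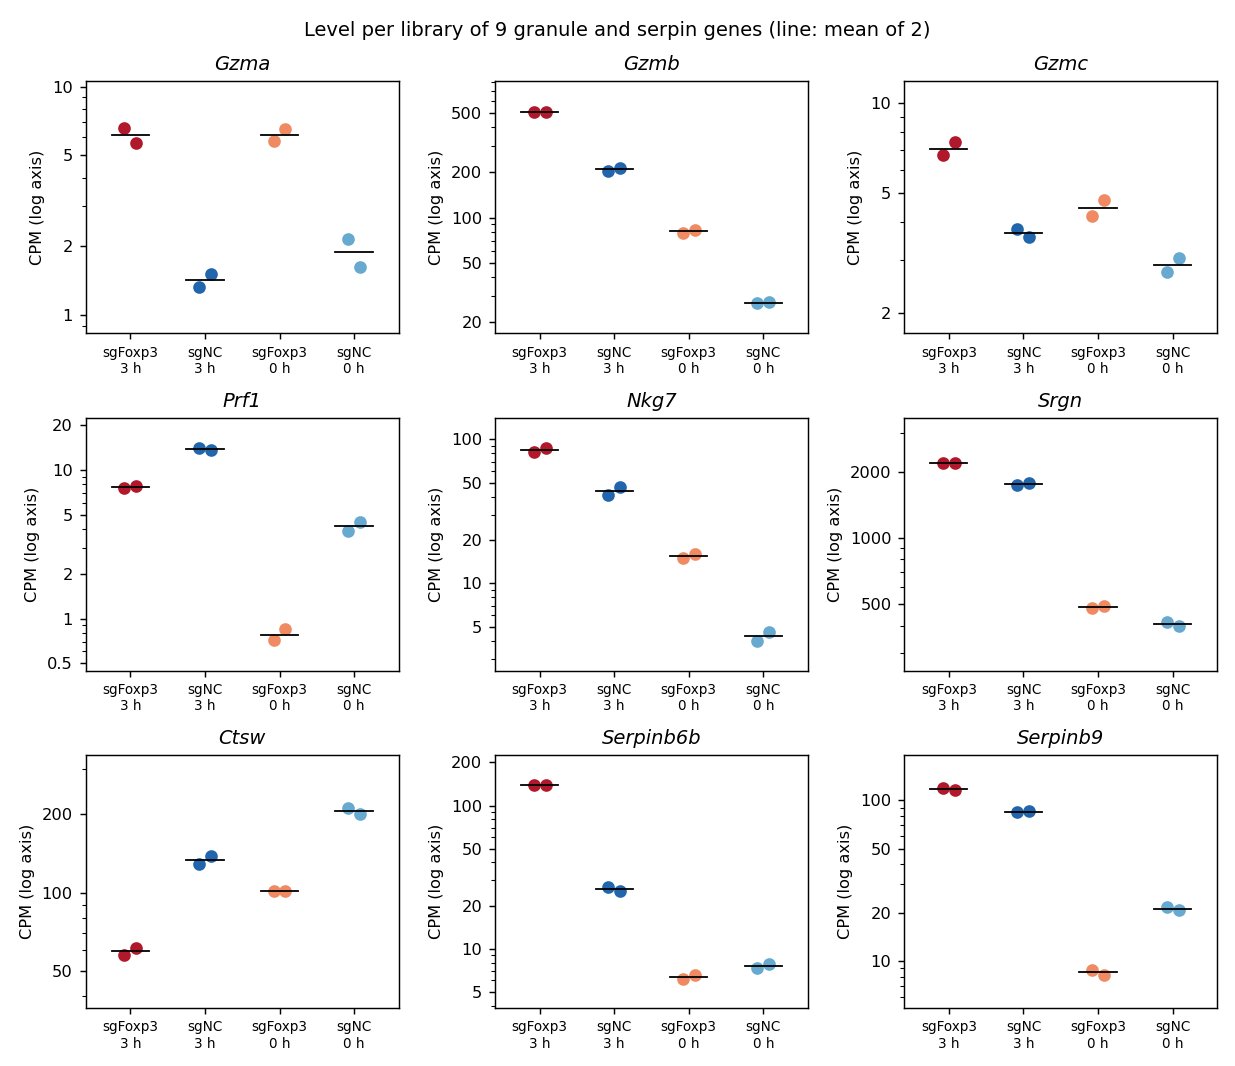
Level of each of the 9 genes in every library, in CPM on a log axis (points: libraries; line: mean of 2). The Foxp3-guide libraries lie above the control-guide libraries of the same time for Gzma, Gzmb, Gzmc, Nkg7 and Srgn and below them for Prf1 and Ctsw, while Serpinb6b and Serpinb9 lie below at 0 h and above at 3 h.

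Granzyme B carried most of the granzyme RNA in all 4 groups. Gzmb (ENSMUSG00000015437.5; GRCm38 chromosome 14, 56258838 to 56262260, minus strand) stood at 509 and 509.7 CPM with the Foxp3 guide and 205 and 215 CPM with the control guide at 3 h. In unstimulated cells it stood at 79.0 and 82.7 CPM with the Foxp3 guide and 26.9 and 27.2 CPM with the control guide. The 4 groups are fully apart, and the highest level came with both the Foxp3 guide and the TCR. The guide effect was a log2 change of 1.28 ± 0.039 (SE; 2.42-fold, adjusted p = 5.22e-19) at 3 h and 1.58 ± 0.045 (2.99-fold, adjusted p = 1.16e-19) at 0 h.

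Granzyme A, a tryptase that cleaves other substrates than granzyme B, was a low-level transcript and moved with the guide more than with the TCR. Gzma (ENSMUSG00000023132.8; chromosome 13, 113093825 to 113100981, minus strand) stood at 6.61 and 5.64 CPM with the Foxp3 guide and 1.33 and 1.51 CPM with the control guide at 3 h. The values at 0 h were 5.77 and 6.53 CPM with the Foxp3 guide and 2.14 and 1.63 CPM with the control guide. Both Foxp3-guide groups cover the same range, above both control-guide groups. It was 4.27-fold higher with the Foxp3 guide at 3 h (log2 change 2.10 ± 0.15, adjusted p = 7.98e-12) and 3.27-fold higher at 0 h (1.71 ± 0.13, adjusted p = 6.94e-11). With the Foxp3 guide the TCR effect was -0.02 (95% interval -0.24 to 0.20, adjusted p = 0.882), and the libraries of the 2 times overlapped. With the control guide Gzma was lower at 3 h by -0.61 (adjusted p = 0.00245) on the log2(TPM + 1) scale. TPM is the length-scaled abundance of a transcript. On the CPM scale the log2 change was -0.40 ± 0.18 (adjusted p = 0.0451). That call was lost without 1 library at a time: -0.21 (adjusted p = 0.382) without the first control-guide library at 0 h, and -0.32 (0.198) and -0.49 (0.056) without the first or the second at 3 h. The difference between the TCR effects was 0.39 (interval -0.05 to 0.82, adjusted p = 0.146), and 0.57 (adjusted p = 0.042) without the second Foxp3-guide library at 3 h.

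Gzmc (ENSMUSG00000079186.3; chromosome 14, 56231441 to 56234656, minus strand) lies 24.2 kb from Gzmb in a cluster of 7 granzyme genes. It stood at 6.69 and 7.41 CPM with the Foxp3 guide and 3.80 and 3.59 CPM with the control guide at 3 h, and at 4.21 and 4.74 CPM with the Foxp3 guide and 2.73 and 3.04 CPM with the control guide at 0 h. It followed the order of its neighbour Gzmb at 3 h but with smaller steps, and its Foxp3-guide level at 0 h was above its control-guide level at 3 h. Gzmc rose with the Foxp3 guide by 0.94 ± 0.11 on the log2 scale at 3 h (1.92-fold, adjusted p = 5.12e-08) and by 0.63 ± 0.12 at 0 h (1.55-fold, adjusted p = 4.35e-05). On the log2(TPM + 1) scale, the rise at 0 h was 0.31 (adjusted p = 0.012). The TCR effect was 0.66 ± 0.097 with the Foxp3 guide (adjusted p = 1e-06), or 0.33 on the log2(TPM + 1) scale. With the control guide it was 0.36 ± 0.13 (adjusted p = 0.0133), but -0.02 on the log2(TPM + 1) scale (adjusted p = 0.828), 0.27 (adjusted p = 0.106) without the first control-guide library at 0 h and 0.31 (0.0761) without the first at 3 h.

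The other 5 genes of that cluster were nearly silent, and their few reads came mostly from Foxp3-guide libraries. Gzmd had 7 and 14 reads with the Foxp3 guide and 0 and 0 with the control guide at 3 h, and 2 and 54 with the Foxp3 guide and 0 and 0 with the control guide at 0 h. Gzme had 5 and 6 reads against 2 and 0 at 3 h, and 1 and 16 against 0 and 0 at 0 h, again with the Foxp3 guide first and the control guide second. Gzmf had 3 and 3 with the Foxp3 guide and 0 and 0 with the control guide at 3 h, and 0 and 17 against 3 and 0 at 0 h. At 0 h nearly all reads of these genes were in 1 library, the second Foxp3-guide library, which also held all 39 reads of Gzmg at that time. Gzmn had 0 reads in every library. No fold is given for these genes. Of the granzyme genes elsewhere, Gzmk had 4 and 8 reads with the Foxp3 guide and 0 and 1 with the control guide at 3 h, and 18 and 9 against 3 and 5 at 0 h. Gzmm, the only other granzyme gene with enough reads to test, was not called in either guide comparison (0.46, interval -0.19 to 1.10, at 3 h and 0.34, interval -0.20 to 0.88, at 0 h).

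**Figure D2:**
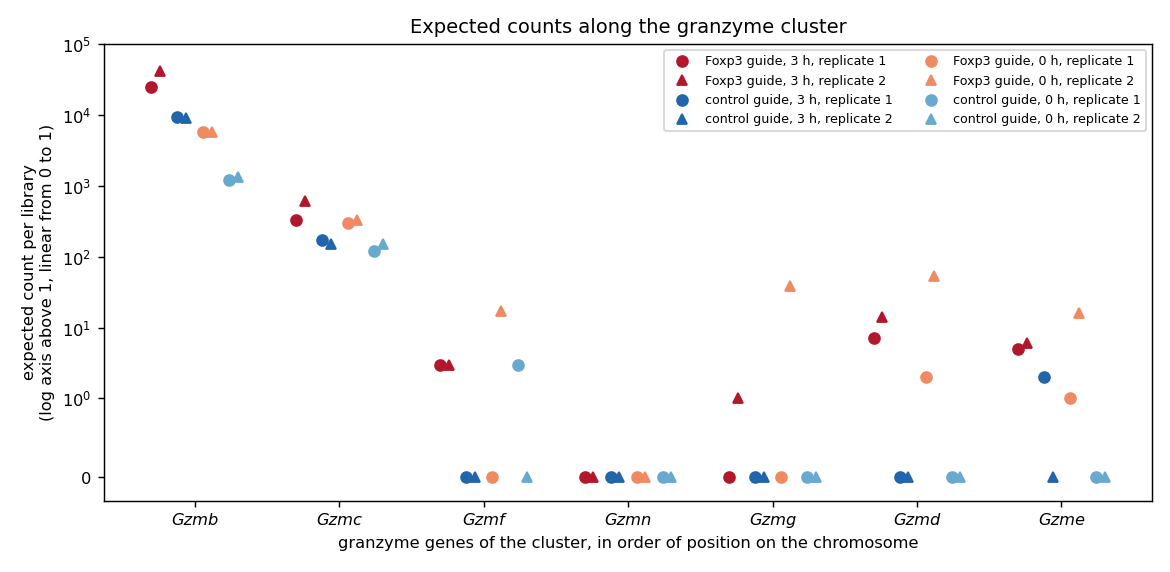
Expected counts per library of the 7 granzyme genes of the cluster on chromosome 14, in order of position (y axis logarithmic above 1 and linear from 0 to 1; circles replicate 1, triangles replicate 2). Gzmb and Gzmc have reads in all 8 libraries, and at 0 h nearly all reads of Gzmd, Gzme, Gzmf and Gzmg are in the second Foxp3-guide library.

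Perforin went the opposite way to the granzymes with the Foxp3 guide. Prf1 (ENSMUSG00000037202.6; chromosome 10, 61297833 to 61304680, plus strand) stood at 7.55 and 7.84 CPM with the Foxp3 guide and 13.9 and 13.6 CPM with the control guide at 3 h. Without restimulation it stood at 0.714 and 0.844 CPM with the Foxp3 guide, from 51 and 58 reads, and at 3.89 and 4.49 CPM with the control guide, from 174 and 220 reads. The Foxp3-guide libraries were lower at both times, and the gap was wider at 0 h. Prf1 was 1.78-fold lower with the Foxp3 guide at 3 h (log2 change -0.83 ± 0.086, adjusted p = 7.62e-09) and 5.38-fold lower at 0 h (-2.43 ± 0.14, adjusted p = 1.36e-13). After TCR restimulation it rose 9.89-fold with the Foxp3 guide and 3.28-fold with the control guide. Those TCR effects differed by 1.59 ± 0.17 on the log2 scale (adjusted p = 2.67e-08). On the log2(TPM + 1) scale, where the added 1 exceeds the 0 h level of 0.53 ± 0.042 TPM with the Foxp3 guide, the 0 h guide effect was -1.54, the TCR effects were 1.76 and 1.12 with the Foxp3 and the control guide, and their difference was 0.64 (adjusted p = 0.0046).

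Nkg7, a granule membrane protein needed for efficient granule release, was higher with the Foxp3 guide at both times, as Gzma, Gzmb and Gzmc were. Nkg7 (ENSMUSG00000004612.9; chromosome 7, 43437073 to 43438249, plus strand) stood at 81.1 and 87.5 CPM with the Foxp3 guide and 41 and 46.3 CPM with the control guide at 3 h. Its 0 h values were 14.99 and 16.0 CPM with the Foxp3 guide and 3.98 and 4.61 CPM with the control guide. The 4 groups do not overlap and stand in the same order as for Gzmb. The guide effect was 0.95 ± 0.058 at 3 h (1.93-fold, adjusted p = 7.56e-12) and 1.85 ± 0.090 at 0 h (3.603-fold, adjusted p = 1.55e-13). The TCR effect was 2.44 ± 0.062 with the Foxp3 guide (5.44-fold) and 3.34 ± 0.084 with the control guide (10.1-fold), a difference of -0.90 ± 0.11 (adjusted p = 9.76e-07).

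Serglycin, the proteoglycan core that holds granzymes in the granule, was the most abundant of the 9 transcripts and changed mostly with the TCR. Srgn (ENSMUSG00000020077.14; chromosome 10, 62493833 to 62527451, minus strand) stood at 2199 and 2191 CPM with the Foxp3 guide and 1751 and 1791 CPM with the control guide at 3 h, and at 481 and 493 CPM with the Foxp3 guide and 416 and 399 CPM with the control guide at 0 h. Each guide shows a clear gap between the times. The TCR effect was 2.17 ± 0.043 with the Foxp3 guide (4.51-fold, adjusted p = 4.97e-24) and 2.12 ± 0.043 with the control guide (4.34-fold, adjusted p = 1.39e-23). Their difference was 0.05 (interval -0.07 to 0.17, adjusted p = 0.496), and 0.12 (adjusted p = 0.0341) on the log2(TPM + 1) scale. The guide effect was small, 0.31 ± 0.041 at 3 h (adjusted p = 4.45e-07) and 0.26 ± 0.041 at 0 h (adjusted p = 7.39e-06), and depended on the scale. On log2(TPM + 1) it was 0.07 at 3 h (adjusted p = 0.0504) and -0.05 at 0 h (adjusted p = 0.118). The median over all genes tested also lay lower on that scale, at -0.12 for the 3 h and -0.15 for the 0 h guide effect. Relative to that median, Srgn at 0 h was 0.23 higher on the CPM scale and 0.10 higher on the TPM scale.

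Cathepsin W, a papain-like cysteine protease of cytotoxic lymphocytes, was the only member lower both with the Foxp3 guide and after the TCR with each guide. Ctsw (ENSMUSG00000024910.5; chromosome 19, 5465043 to 5468507, minus strand) stood at 57.8 and 61.3 CPM with the Foxp3 guide and 128 and 138 CPM with the control guide at 3 h. The 0 h libraries had 102 and 101 CPM with the Foxp3 guide and 211 and 202 CPM with the control guide. The guide effect was -1.16 ± 0.043 at 3 h (2.24-fold lower, adjusted p = 4.13e-17) and -1.02 ± 0.041 at 0 h (2.03-fold lower, adjusted p = 1.59e-16). The TCR effect was -0.77 ± 0.043 with the Foxp3 guide, against -0.63 ± 0.041 with the control guide (adjusted p = 1.85e-14 and 6.34e-13), the last being -0.98 on the log2(TPM + 1) scale. The difference between them, -0.14 ± 0.059, was not called (interval -0.26 to -0.02, adjusted p = 0.0619). It was called without the first control-guide library at 0 h (-0.18, adjusted p = 0.0367), without the first control-guide library at 3 h (-0.20, adjusted p = 0.00596) and with no filter on low values (-0.17, adjusted p = 0.0244).

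**Figure D3:**
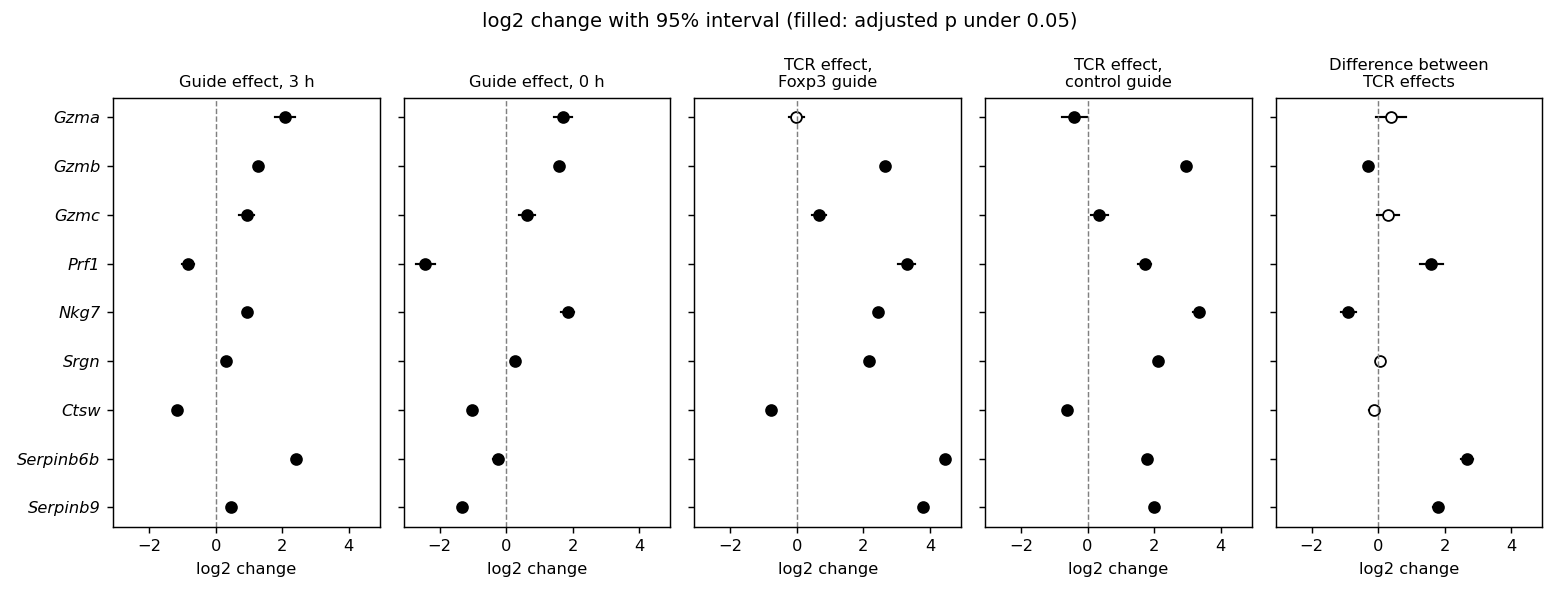
log2 change of each gene in the 5 comparisons (points: edgeR estimate; bars: 95% interval; filled: adjusted p under 0.05). Prf1 and Ctsw are left of 0 in both guide comparisons, and Serpinb6b and Serpinb9 are on opposite sides of 0 at 3 h and at 0 h.

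The serpins were the genes whose guide effect changed direction with the TCR. Serpinb6b (ENSMUSG00000042842.11; chromosome 13, 32965209 to 32979067, plus strand), an intracellular clade B serpin, stood at 139 and 140.2 CPM with the Foxp3 guide and 27.1 and 25.3 CPM with the control guide at 3 h. Its levels at 0 h were 6.19 and 6.52 CPM with the Foxp3 guide and 7.33 and 7.81 CPM with the control guide. It was thus slightly lower with the Foxp3 guide at 0 h and far higher at 3 h. The guide effect was 2.41 ± 0.049 at 3 h (5.32-fold, adjusted p = 3.8e-22) and -0.25 ± 0.074 at 0 h (1.19-fold lower, adjusted p = 0.00435). The fall at 0 h was not called without the second control-guide library at 0 h (-0.20, adjusted p = 0.0811) or the first Foxp3-guide library at 0 h (-0.21, adjusted p = 0.059), and on log2(TPM + 0.1) it was -0.41 (adjusted p = 0.00135). After the TCR Serpinb6b rose 22.0-fold with the Foxp3 guide and 3.46-fold with the control guide. The difference between those effects was 2.67 ± 0.090 (adjusted p = 5.9e-17), the widest among the 9 genes.

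Serpinb9 (ENSMUSG00000045827.10; chromosome 13, 33003250 to 33017957, plus strand) is a clade B serpin on the same strand, 24.2 kb further on. It stood at 119 and 115 CPM with the Foxp3 guide and 84.0 and 85.3 CPM with the control guide at 3 h. Levels at 0 h were 8.83 and 8.19 CPM with the Foxp3 guide and 21.6 and 20.8 CPM with the control guide. Here the larger gap was at 0 h, where the Foxp3-guide libraries were lower. The guide effect was 0.47 ± 0.042 at 3 h (1.38-fold, adjusted p = 7.74e-10), or 0.26 on the log2(TPM + 1) scale (adjusted p = 0.00687). At 0 h it was -1.31 ± 0.059 (2.49-fold lower, adjusted p = 8.75e-16). The TCR effect was 3.78 ± 0.052 with the Foxp3 guide (13.8-fold) and 2.0 ± 0.049 with the control guide (3.998-fold), a difference of 1.78 ± 0.072 (adjusted p = 1.21e-15). All 72 expected counts of the 9 genes were whole numbers to within 0.005, so the counting gave none of them a fractional share of a read.

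After TCR restimulation, 7 of the 9 genes were higher and 1 lower with the Foxp3 guide, and 7 higher and 2 lower with the control guide. Over all genes tested, 85.4% changed with the Foxp3 guide (40.8% upward and 44.5% downward) and 81.8% with the control guide (40.9% in each direction). The 7 that rose were the same with both guides: Gzmb, Gzmc, Prf1, Nkg7, Srgn, Serpinb6b and Serpinb9. The median log2 change of the 9 was 2.44 with the Foxp3 guide, against 1.79 with the control guide, beside -0.07 and -0.01 over all genes. The comparisons share libraries, since the 0 h and 3 h groups of each guide also enter the guide comparisons. For Gzmb the TCR effect was 2.66 ± 0.041 with the Foxp3 guide (6.30-fold, adjusted p = 3.27e-26) and 2.96 ± 0.045 with the control guide (7.78-fold, adjusted p = 5.95e-26).

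The TCR effects of the 2 guides differed for 5 of the 9 genes, and 44.8% of all genes tested differed. Prf1, Serpinb6b and Serpinb9 had the larger effect with the Foxp3 guide, a positive difference, which was called for 17.8% of all genes. Gzmb, at -0.30 ± 0.059 (adjusted p = 0.00016), and Nkg7 had the smaller effect with the Foxp3 guide. A negative difference was called for 27% of all genes, a share that also holds genes that fell more with the Foxp3 guide. Gzma, Gzmc, Srgn and Ctsw were not called. For Gzmc the difference was 0.31 with an interval of -0.02 to 0.64 (adjusted p = 0.127).

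Compared per unit length, in TPM, serglycin led in every group and the second place changed with the TCR. Srgn averaged 3552 ± 60.4 TPM with the Foxp3 guide, against 3381 ± 22.8 with the control guide at 3 h, and 991 ± 4.84 and 1028 ± 4.41 TPM at 0 h (SD, n = 2 each, Foxp3 guide first). The second most abundant was Gzmb at 3 h with both guides, at 489 ± 11.3 TPM with the Foxp3 guide and 232 ± 3.78 TPM with the control guide. At 0 h it was Ctsw with both guides, at 146 ± 0.849 TPM with the Foxp3 guide and 356 ± 11.6 TPM with the control guide. The least abundant was Prf1, at 4.18 ± 0.0707 TPM with the Foxp3 guide at 3 h, 0.53 ± 0.042 TPM with the Foxp3 guide at 0 h and 3.45 ± 0.382 TPM with the control guide at 0 h. With the control guide at 3 h it was Gzma, at 2.84 ± 0.198 TPM. Neighbours whose libraries overlapped were Gzmc and Gzma with the Foxp3 guide at 3 h, and Nkg7 and Serpinb9 as well as Serpinb6b and Gzmc with the control guide at 0 h. In full, the order after Srgn and Gzmb with the Foxp3 guide at 3 h was Nkg7, Serpinb6b, Ctsw, Serpinb9, Gzmc, Gzma and Prf1. With the control guide at 3 h it was Ctsw, Nkg7, Serpinb9, Serpinb6b, Prf1, Gzmc and Gzma. After Srgn and Ctsw at 0 h it was Gzmb, Nkg7, Gzma, Gzmc, Serpinb6b, Serpinb9 and Prf1 with the Foxp3 guide, and Gzmb, Nkg7, Serpinb9, Serpinb6b, Gzmc, Gzma and Prf1 with the control guide.

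Ratios within a library do not depend on how libraries are scaled to each other, and they show how far granzyme B moved against its inhibitor and its pore-forming partner. The TPM ratio of Gzmb to Serpinb9 was 11.0 and 11.4 with the Foxp3 guide and 6.30 and 6.48 with the control guide at 3 h, and 23.0 and 26.0 against 3.23 and 3.37 at 0 h. The ratio of Gzmb to Prf1 was 120.2 and 114 with the Foxp3 guide and 25.8 and 27.7 with the control guide at 3 h, and 186 and 175 against 12.1 and 10.45 at 0 h. Both ratios were highest in the Foxp3-guide libraries at 0 h and lowest in the control-guide libraries at 0 h, with no overlap between groups. The ratio of Gzmb to Gzma was 42.4 and 49.75 with the Foxp3 guide and 85.0 and 78.8 with the control guide at 3 h. At 0 h it was 7.60 and 6.99 with the Foxp3 guide and 6.87 and 9.17 with the control guide, where the groups overlap. Serpinb6b over Serpinb9 was 2.21 and 2.25 with the Foxp3 guide and 0.585 and 0.568 with the control guide at 3 h, and 1.29 and 1.56 against 0.604 and 0.659 at 0 h. Serpinb6b was thus the more abundant of the pair in all 4 Foxp3-guide libraries and the less abundant in all 4 control-guide libraries.

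**Figure D4:**
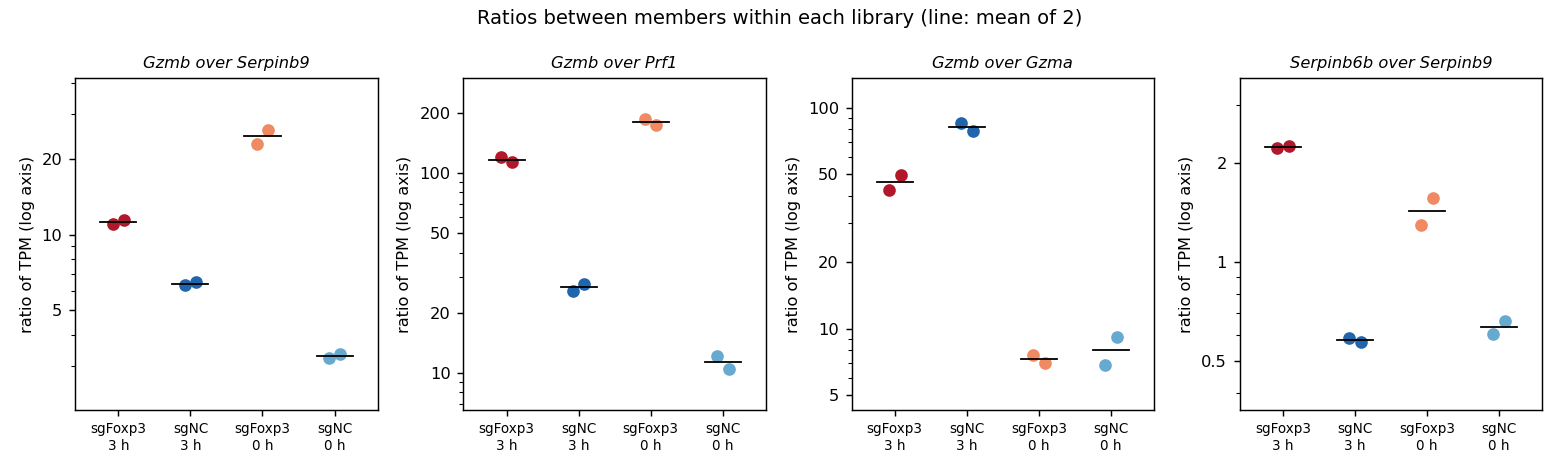
Ratio of TPM between pairs of the 9 genes within each library, on a log axis (points: libraries; line: mean of 2). Gzmb over Serpinb9 and Gzmb over Prf1 are higher in the Foxp3-guide libraries at both times, and Serpinb6b over Serpinb9 is above 1 in the Foxp3-guide libraries and below 1 in the control-guide libraries.

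Of all genes called, 49.9% were higher with the Foxp3 guide at 3 h on the CPM scale and 27.4% on the log2(TPM + 1) scale, and at 0 h these shares were 54.0% and 27.9%. For the TCR effect with the control guide they were 49.99% and 37.3%, and for the difference between TCR effects 39.7% and 51.5%. The direction of both guide effects was the same on the 2 scales for each of the 9 genes except Srgn at 0 h.

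**Figure D5:**
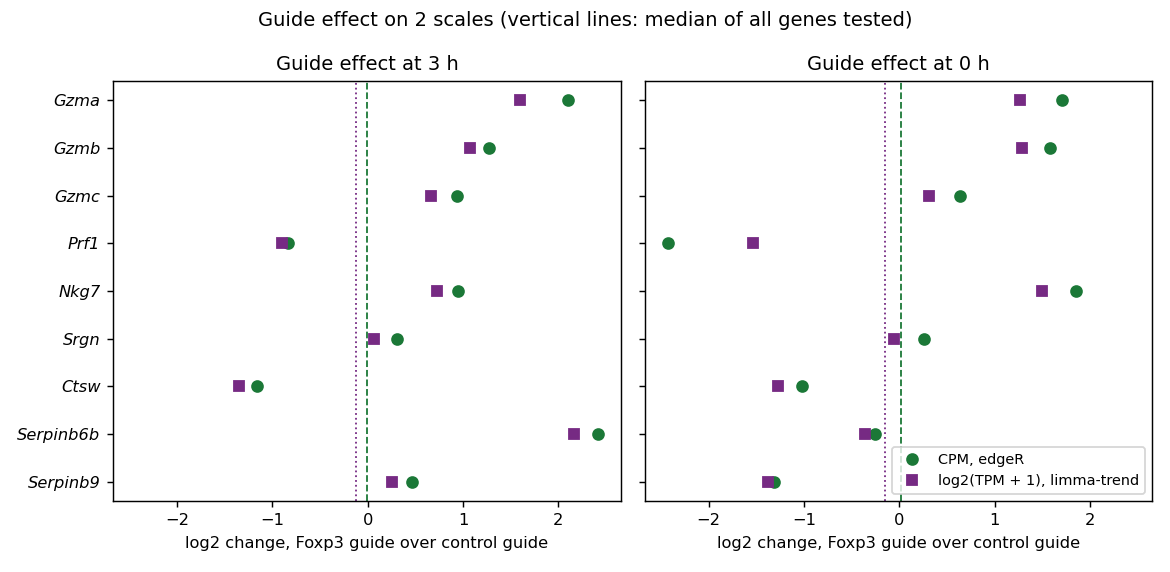
Guide effect of each gene at 3 h and at 0 h on 2 scales (circles: CPM with edgeR; squares: log2(TPM + 1) with limma-trend; vertical lines: median over all genes tested on each scale). Only Srgn at 0 h has its circle and square on opposite sides of 0, at 0.26 and -0.05.

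Genes whose level over the 8 libraries was most like that of a member were looked up among the protein-coding genes of at least 3 mean log2 CPM, by Pearson's r of log2 CPM. These values are a description over libraries that fall into 4 groups. They were Sarnp (0.9997) and Hnrnpa1 (0.9991) for Gzmb, Hells (0.9943) and Gle1 (0.9904) for Gzma, and Pcbp2 (0.9898) and Ikzf1 (0.9887) for Gzmc. For Prf1 the first was Il2ra (0.9989), the high-affinity IL-2 receptor subunit. For Nkg7 they were Eef1g (0.999) and Pold2 (0.9989), for Srgn Zbtb32 and Snu13 (both 0.9998), and for Ctsw Prkag2 (0.9982) and Pglyrp1 (0.998). For Serpinb6b they were Prnp (0.9987) and Fip1l1 (0.9977), and for Serpinb9 Eml4 (0.9993) and Stat5a (0.9991).

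Other proteins that act in or around the granule were read from lists of known members. Their counts stand beside the shares over all genes tested: 30.7% higher and 30.8% lower at 3 h, and 34.2% higher and 29.1% lower at 0 h. Of 8 granule proteases and their cystatin inhibitor, 4 were higher and 2 lower with the Foxp3 guide at 3 h, and 5 and 2 at 0 h, with list medians of 0.08 and 0.53. Cst7 (cystatin F, which inhibits the cathepsins that activate granzymes) averaged 104 ± 1.82 CPM with the Foxp3 guide and 77.1 ± 2.26 CPM with the control guide at 3 h, and 20.8 ± 0.267 and 8.95 ± 0.402 CPM at 0 h. Its guide effect was 0.43 ± 0.043 at 3 h (adjusted p = 4.35e-09) and 1.22 ± 0.060 at 0 h (adjusted p = 5.74e-15). Ctsl, a lysosomal cathepsin, was lower at 0 h at -1.60 and higher at 3 h at 0.42 (adjusted p = 1.79e-07), or 0.063 (adjusted p = 0.623) at 3 h on the log2(TPM + 1) scale. Ctsh, which can activate granzyme B in mice, was lower at both times, at -3.10 on 7 against 42 reads at 3 h and -1.73 on 12 against 27 reads at 0 h. On the log2(TPM + 1) scale the count higher at 3 h was 1 in place of 4. After the TCR, Lgmn (legumain) was among the largest falls of the list with both guides, -5.32 with the Foxp3 guide, against -3.85 with the control guide. Cst7 rose by 2.32 and 3.10 with the same guides, in that order.

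Of 20 other serpin genes, 5 had enough reads to test, and the other 15 had at most 15 reads in any library. At 3 h, 4 of the 5 were higher with the Foxp3 guide and 0 lower, and at 0 h 4 were higher and 1 lower (2 higher and 1 lower on the log2(TPM + 1) scale). Serpina3g, an intracellular cysteine protease inhibitor, averaged 673 ± 1.63 CPM with the Foxp3 guide and 456 ± 1.59 CPM with the control guide at 3 h, and 30.6 ± 1.57 and 43.1 ± 0.0542 CPM at 0 h. Like Serpinb6b and Serpinb9, it was lower with the Foxp3 guide at 0 h, at -0.49 (adjusted p = 1.29e-09), and higher at 3 h, at 0.56. Its TCR effects differed by 1.06 ± 0.060 (adjusted p = 5.34e-13). Serpina3f, a close paralog that lies beside it, rose by 1.62 at 3 h and 0.79 at 0 h. Reads of this pair were partly shared out by the counting, as their fractional counts show, so the values of each are uncertain. Serpinb1a, an inhibitor of neutrophil serine proteases, was higher at 0 h by 1.62 ± 0.20 at a level of 2.75 ± 0.0349 CPM with the Foxp3 guide and 0.901 ± 0.179 CPM with the control guide.

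Of 14 genes of granule transport and exocytosis, 4 were higher and 10 lower with the Foxp3 guide at 3 h, and 4 and 8 at 0 h, with medians of -0.19 and -0.14. On the log2(TPM + 1) scale these counts were 1 and 10 at 3 h, and 0 and 11 at 0 h. Rab27a, the GTPase that docks granules at the membrane, averaged 145 ± 1.36 CPM with the Foxp3 guide and 193 ± 2.20 CPM with the control guide at 3 h, and 113 ± 0.149 and 185 ± 8.87 CPM at 0 h. It was lower by log2 changes of -0.41 at 3 h and -0.71 at 0 h. Lamp1, a granule membrane protein exposed on release, was lower at 3 h at -0.45. The membrane fusion genes Snap23 and Stx11 were lower at 0 h, at -1.25 and -0.72. After the TCR Stx11 rose with both guides, by 3.71 with the Foxp3 guide, against 3.25 with the control guide, and Vamp8 fell, at -1.42 and -1.60.

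The granule-independent route was read from 4 death ligand and receptor genes. With the Foxp3 guide, 3 were higher and 1 lower at 3 h, and 2 were higher and 1 lower at 0 h. Fasl (Fas ligand) averaged 147 ± 4.23 CPM with the Foxp3 guide and 54.0 ± 1.46 CPM with the control guide at 3 h, and 11.9 ± 0.0417 and 3.15 ± 0.189 CPM at 0 h. It rose with the Foxp3 guide by 1.45 ± 0.044 at 3 h (adjusted p = 4.71e-19) and 1.91 ± 0.079 at 0 h (adjusted p = 1.86e-16). Its TCR effects differed by -0.46 (adjusted p = 0.000285), or -0.16 (adjusted p = 0.162) on the log2(TPM + 1) scale. Fas, the receptor gene, was lower with the Foxp3 guide at 3 h, at -0.20 (adjusted p = 0.00113), and was not called at 0 h (-0.02). Tnfsf10 (TRAIL) was higher with the Foxp3 guide at 3 h, at 0.43, and lower at 0 h, at -0.94. Its receptor gene Tnfrsf10b was higher at 0 h at 0.49, a call that was not kept on the log2(TPM + 1) scale (0.17, adjusted p = 0.0596). All 4 genes of the list rose after the TCR with each guide, as 40.8% of all genes did with the Foxp3 guide, against 40.9% with the control guide.

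Of 17 transcription factor genes tied to effector and memory states of lymphocytes, 8 were higher and 7 lower with the Foxp3 guide at 3 h, and 6 and 9 at 0 h (3 and 8, and 3 and 10, on the log2(TPM + 1) scale). Prdm1 (Blimp-1) averaged 6.82 ± 0.577 CPM with the Foxp3 guide and 25.4 ± 2.54 CPM with the control guide at 3 h, a log2 change of -1.91 ± 0.076 (adjusted p = 1.57e-16). Eomes, a T-box factor that drives Prf1 in CD8 T cells, averaged 4.11 ± 0.512 CPM with the Foxp3 guide and 9.39 ± 0.0614 CPM with the control guide at 3 h (-1.21 ± 0.10, adjusted p = 3.14e-10). At 0 h Eomes averaged 2.68 ± 0.128 CPM with the Foxp3 guide and 2.15 ± 0.214 CPM with the control guide, higher by 0.32 ± 0.13 (adjusted p = 0.0404), but the change was 0.26 (adjusted p = 0.0896) with RLE scaling and -0.011 (adjusted p = 0.93) on the log2(TPM + 1) scale. Tbx21 (T-bet) averaged 4.02 ± 0.132 CPM with the Foxp3 guide and 1.11 ± 0.162 CPM with the control guide at 0 h (1.86 ± 0.12, adjusted p = 1.08e-12). At 3 h it was lower, at 238 ± 2.43 CPM with the Foxp3 guide and 337 ± 7.0 CPM with the control guide (-0.50 ± 0.037, adjusted p = 1.58e-11). It rose after the TCR by 5.89 with the Foxp3 guide, against 8.25 with the control guide, a difference of -2.36 ± 0.12 (adjusted p = 9.27e-14). Tcf7 (TCF-1) was higher with the Foxp3 guide at 0 h by 2.39, and Jun was lower at -1.82. Zeb2 was higher with the Foxp3 guide at 3 h by 1.27, and its TCR effects rest on 21 reads at 0 h with the Foxp3 guide, against 13 with the control guide. Stat5a had the larger TCR effect with the Foxp3 guide, by 1.85 (adjusted p = 3.22e-17).

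Cells other than Treg cells that carry granules were looked for with marker lists. The summed level of 8 NK cell and ILC1 markers was 6.65 to 7.51 CPM with the Foxp3 guide and 9.83 to 10.1 CPM with the control guide at 3 h, and 23.0 to 23.6 CPM against 7.79 to 8.38 CPM at 0 h. At 0 h 5 of the 6 tested markers were higher with the Foxp3 guide and 0 lower, the direction of Gzma, Gzmb, Gzmc and Nkg7 there. Prf1 (-2.43) and Ctsw (-1.02) went the other way at 0 h, as did Serpinb6b and Serpinb9. The call of Eomes, among the 5 markers higher at 0 h, was not kept with RLE scaling (0.26, adjusted p = 0.0896) or on the log2(TPM + 1) scale (-0.011, 0.93). After the TCR, 5 of the 6 were lower and 1 higher with the Foxp3 guide, and 3 and 1 with the control guide. Of all genes, 44.5% and 40.9% were lower after the TCR, and Gzmb and Nkg7 rose with both guides. At 3 h 3 of the 6 (Klrd1, Klrk1 and Itga2) were higher and 1, Eomes, was lower, with a list median of 1.84. The sum was lower there with the Foxp3 guide, and Eomes made up most of it, at 4.11 CPM with the Foxp3 guide and 9.39 CPM with the control guide. Over all genes tested, 34.2% were called higher at 0 h and 30.7% at 3 h. Of the 8 markers, Ncr1 had 1 read and Klre1 3 reads over all 8 libraries, and Klrd1 had 935 reads with the Foxp3 guide at 0 h and 73 with the control guide. Itga2 made up most of the sum at 0 h, at 12.2 CPM with the Foxp3 guide and 4.88 CPM with the control guide. Klrk1 had 72 reads with the Foxp3 guide at 0 h and 12 with the control guide. Both CD8 T cell markers together gave 8.10 to 8.71 CPM with the Foxp3 guide and 6.23 to 6.42 CPM with the control guide at 3 h, and 7.70 to 7.80 CPM and 7.08 to 7.69 CPM at 0 h. The sum of 6 mast cell and basophil markers was 128 to 129 CPM with the Foxp3 guide and 113 to 120.0 CPM with the control guide at 3 h, and 67.9 to 68.3 CPM and 35.8 to 37.6 CPM at 0 h, nearly all of it Kit, while Mcpt4, Tpsb2 and Fcer1a had 0 reads in every library. The sum of 5 myeloid markers was 4.27 to 4.37 CPM with the Foxp3 guide and 0.999 to 1.11 CPM with the control guide at 3 h, and 2.14 to 2.25 CPM and 1.90 to 2.08 CPM at 0 h, most of it Itgam. At 3 h Itgam and Adgre1 were higher with the Foxp3 guide, and the other 3 had few reads. With the Foxp3 guide first, these were 2 against 8 for Cd14, 2 against 4 for Lyz2 and 4 against 2 for Csf1r. Of the 3 gamma delta T cell markers, the sums were 1.81 to 2.0 CPM and 1.84 to 2.18 CPM at 3 h, and 3.01 to 3.26 CPM and 2.703 to 2.85 CPM at 0 h, with the Foxp3 guide first. B cell markers summed to 28.2 to 29.4 CPM with the Foxp3 guide and 87.9 to 90.9 CPM with the control guide at 3 h, and 253 to 256 CPM and 928 to 930.5 CPM at 0 h, nearly all of it Ighm, while Ms4a1 had 7 reads over all libraries. What part these cells have in the values of the 9 genes was not tested.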

How the data were processed

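RNA-seq was made from 8 stranded libraries of cultured mouse nTreg cells, in 4 groups of 2 by guide and time. The submitters' processing notes name Trim Galore 0.6.3 for trimming, STAR 2.7.9a for alignment to mm10 (GRCm38) and RSEM 1.3.1 for quantification; the annotation release is not given in the sources used here. RSEM's expected count per gene was deposited by the authors and was rounded to a whole number before testing. The deposited TPM values, also from the authors, are scaled by transcript length and to the same total per library, and served for levels between genes and as a second scale. Positions came from GENCODE on GRCm38, matched by gene identifier, and promoter sequences from RefSeq on GRCm38.p6.

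Genes were kept by edgeR's filterByExpr (16642 of 55665) and scaled by TMM, and CPM used these scaled totals. A robust quasi-likelihood model (edgeR 4.0.16, limma 3.58.1, R 4.3.3) used the 8 libraries together, 1 mean for each group and 4 residual degrees of freedom, with Benjamini-Hochberg adjustment over all genes tested. Errors of log2 changes are SE, and errors of levels are SD (n = 2). Comparisons, 5 in all, covered the effect of the guide at 3 h and at 0 h, the TCR effect for the Foxp3 and the control guide, and how far these TCR effects differed. The procedure was tested on simulated data in which far fewer genes changed than here. That test cannot judge how libraries are scaled to each other when most genes change. Alternatives were RLE scaling, DESeq2 1.42.0, limma-trend on log2(TPM + 1) and log2(TPM + 0.1), other filters, fewer libraries, a replicate block, an adjusted p of 0.01, and each library left out.

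Within a group, the chi-square per gene between libraries was 4.55 to 7.47, so all were counted. Named genes were all 9 members, and from each other list at most the 3 called genes with the largest change in a comparison (Tbx21, Eomes, Cst7, Fasl and others also carry values in comparisons where they were not among these). The genes and lists were chosen with earlier results of these data known. The value of 1 marker gene is not reported here.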

Additional observations from a re-analysis of the deposited data

Results flagged for a closer look

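The TCR effect differed between the guides for 5 of the 9 genes, by the interaction test of edgeR's quasi-likelihood model with Benjamini-Hochberg adjustment. Of all genes tested, 44.8% were called in this comparison. The difference, Foxp3 guide minus control guide on the log2 scale, was 2.67 for Serpinb6b (adjusted p = 5.9e-17), 1.78 for Serpinb9 (1.21e-15), 1.59 for Prf1 (2.67e-08), -0.90 for Nkg7 (9.76e-07) and -0.30 for Gzmb (0.00016). Serpinb6b and Serpinb9, which lie beside each other, had a guide effect of opposite sign at 3 h and 0 h, at 2.41 and -0.25 for Serpinb6b and 0.47 and -1.31 for Serpinb9. Prf1, Nkg7 and Gzmb kept the sign of the guide effect at both times, and its size was smaller at 3 h. With each library left out in turn, all 5 differences kept their sign and call, at 2.61 to 2.72 for Serpinb6b, 1.72 to 1.87 for Serpinb9, 1.47 to 1.71 for Prf1, -1.02 to -0.80 for Nkg7 and -0.35 to -0.24 for Gzmb (highest adjusted p 0.00648).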

How the results depend on the processing

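Of 751 results of single members under an alternative, 721 kept their direction and side of the threshold, 15 were no longer called, 6 became called and 9 changed sign. The counts of members called stayed within 1.5 times in 84 of 84 repeats. Changes of sign occurred in 3 results. The TCR effect of Gzma with the Foxp3 guide, not called in any of them, was 0.032 with RLE scaling, 0.039 with DESeq2 and 0.015 with the 4 libraries compared alone, and with 1 library left out it ran from -0.12 to 0.14, positive without replicate 2 of the Foxp3-guide group at 0 h or at 3 h. The guide effect on Srgn at 0 h was -0.052 on log2(TPM + 1) and -0.052 on log2(TPM + 0.1). The TCR effect on Gzmc with the control guide was -0.021 and -0.024 on these scales. That call was also lost with DESeq2 (0.34, adjusted p = 0.0792), with at least 1 CPM in all libraries (0.27, 0.0564) and at an adjusted p of 0.01, and the call of Gzma in that comparison with DESeq2 (-0.42, 0.091), with the 4 libraries compared alone (-0.40, 0.0604) and at an adjusted p of 0.01. The cause of these changes was not tested. Requiring 1 CPM everywhere removed Prf1, and the difference between TCR effects needs all 8 libraries.

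Same-numbered libraries did not deviate together (correlations -0.0989 to 0.0710), and with replicate number as a block all 45 member results kept direction and call (9, 9, 8, 9 and 5 members called). Scalings of the other lists were added after the data were seen: 55 of 60 list counts stayed within 1.5 times, and of 152 values of the list genes named by rule 146 kept their call, 6 lost it and 0 changed sign under RLE scaling or log2(TPM + 1); Eomes at 0 h, named outside that rule, did on the log2(TPM + 1) scale. Depth limits Prf1 at 0 h with the Foxp3 guide (51 and 58 reads), Gzma at 3 h with the control guide (60 and 64 reads) and the nearly silent granzyme genes.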
